A study of Drosophila melanogaster with 10 samples.

Results

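The binding sites of Shep on chromatin were compared with those of Su(Hw) in Kc167 cells, an established Drosophila melanogaster line of embryonic origin, by setting all 1443 deposited Shep peaks against all 2369 deposited Su(Hw) peaks. A peak of either list was called shared when it overlapped a peak of the other by at least 1 bp, and unshared otherwise. Together these are 3812 of the 9570 peaks of the series, whose other 3 lists hold 2678 peaks of Mod(mdg4)2.2, 2742 of CP190 and 338 of Rump. The Shep list combines 2 ChIP-seq libraries, made with a guinea pig and a rabbit antibody against Shep, and the Su(Hw) list comes from 1 library made with a rabbit antibody. The cells were grown at 25 °C with no treatment named in the labels, and per the labels the 3 libraries were set against the same input library. The study has 10 libraries in all, with 2 each of Mod(mdg4)2.2 and Rump, set against that input too, 1 of CP190, set against the other input, and the 2 inputs.

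Su(Hw) is a zinc-finger protein that binds DNA directly and recruits the BTB-domain proteins Mod(mdg4)2.2 and CP190. Together they make up the insulator complex first studied at the gypsy retrotransposon, where it limits the action of enhancers on promoters. Su(Hw) also sits at many other sites in the genome. Shep, the product of the gene alan shepard, has RNA recognition motifs and is known to associate with this insulator complex and to counteract its activity in the nervous system, a tissue that Kc167 cells do not represent.

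Each list exists once, so the spread between antibodies or cultures cannot be seen and no test over replicates was possible. Intervals given with shares are Wilson 95% intervals and those given with medians are exact binomial 95% intervals. Both cover counting error over peaks only, and neighbouring peaks are not independent. Sequencing depth is unknown, since the lists hold no read totals. The Shep peaks all have a width of 484 bp, whereas the Su(Hw) peaks have a median width of 2106 bp (quartiles 1998 and 2312, range 300 to 7017 bp). Of the Shep peaks, 46 overlapped the peak before them, and 454 (31.5%, 29.1 to 33.9) have a deposited q-value over 0.05. What the common input contributes to the overlap of Shep and Su(Hw) was not tested, and the overlaps of the other lists are given beside it.

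Most Shep peaks lay away from Su(Hw), and most Su(Hw) peaks lacked Shep. Of the 1443 Shep peaks, 184 (12.8%, 11.1 to 14.6) met a Su(Hw) peak. Of the 2369 Su(Hw) peaks, 174 (7.34%, 6.36 to 8.47) met a Shep peak. The counts differ because 12 Su(Hw) peaks met 2 Shep peaks each and 2 Shep peaks met 2 Su(Hw) peaks each, while 162 Su(Hw) peaks met 1 Shep peak. As a background, a window as wide as a Shep peak meets a Su(Hw) peak at 5.26% of all its possible positions on the chromosome arms 2L, 2R, 3L, 3R and X, and a window of the median Su(Hw) width meets a Shep peak at 2.92% of positions. The Shep share was thus above the share of positions, but far below that of the other proteins, since 56.9% of the 5758 Mod(mdg4)2.2, CP190 and Rump peaks met a Su(Hw) peak. By list, the share was 68.3% (66.5 to 70.0) for Mod(mdg4)2.2, 43.1% (41.3 to 45) for CP190 and 79.0% (74.3 to 83.0) for Rump. Width bears on these shares, since the peaks of Mod(mdg4)2.2 (304 bp) and Rump (256 bp) are narrower than those of Shep and the CP190 peaks (median 2025 bp) are wider. Shep in turn was met by 11.4% of the 5758 peaks. By list, Shep was at 10.8% (9.67 to 12.0) of Mod(mdg4)2.2, 12.6% (11.4 to 13.9) of CP190 and 6.51% (4.34 to 9.66) of Rump peaks. The Su(Hw) share of 7.34% was thus below that of CP190, whose peaks are of similar width, without overlap of the intervals.

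The 5 shared Shep peaks of highest score outside 2R all lay with Mod(mdg4)2.2, CP190 or both, unlike 60 of the 184 shared Shep peaks (32.6%), which met neither of these nor Rump. The peak score is the authors' own signal value for each peak, used here to rank Shep peaks among themselves. The highest, at chr3R:133447-133930 (dm3), had a score of 264.8 and lay wholly inside the Su(Hw) peak chr3R:132655-134230, with the midpoints 246 bp apart. Mod(mdg4)2.2 was present at both. The next, chr2L:20104546-20105029 (score 242.9), lay in a Su(Hw) peak of 1481 bp with CP190, at a midpoint distance of 238.5 bp. The other 3 were chr3R:7394737-7395220 with Mod(mdg4)2.2 (551.5 bp from the Su(Hw) midpoint), chr3R:5530874-5531357 with CP190 (374.5 bp) and chrX:3999928-4000411 with both proteins (121 bp). None of these 5 carried Rump, an hnRNP M family protein, at the Shep peak.

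The 5 unshared Shep peaks of highest score outside 2R were of like height and also lay at insulator proteins. With 2R included, the highest score was 314.8 among unshared and 264.8 among shared Shep peaks. The first, chrX:18528656-18529139, had a score of 253.5 and was 67541 bp from the edge of the nearest Su(Hw) peak. The others were chr3L:19625817-19626300 (score 247.3, gap 12308 bp), chr3R:17444764-17445247 (246.9, 6166 bp), chrX:10638678-10639161 (245.8, 11717 bp) and chr3R:19856819-19857302 (243.6, 23956 bp). Each of these 5 overlapped Mod(mdg4)2.2, CP190 or both, so a high Shep peak at an insulator protein could be found without Su(Hw). They do not stand for the group, since 835 of the 1259 unshared Shep peaks (66.3%) met neither of these nor Rump. Genes at the named positions were not analysed here.

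The distance between the lists was then measured from midpoint to midpoint. Over the 1442 Shep peaks on a chromosome or scaffold with a Su(Hw) peak, the median distance to the nearest Su(Hw) midpoint was 15418 bp (quartiles 4849 and 34652). The other lists lay nearer to Su(Hw), with medians of 216.5 bp (Mod(mdg4)2.2), 5920 bp (CP190) and 106.5 bp (Rump). Split by sharing, the median was 419.5 bp (quartiles 167 and 788) for shared Shep peaks and 18700 bp (quartiles 8572 and 38221) for unshared ones. For Su(Hw), the median to the nearest Shep midpoint was 388 bp (quartiles 144 and 778) at shared and 38157 bp (quartiles 16461 and 79727) at unshared peaks. Seen from Shep, CP190 was the nearest of the insulator proteins, with a median of 7207 bp, followed by Mod(mdg4)2.2 with 11654 bp and Su(Hw). This is also the order of the list sizes (2742, 2678 and 2369 peaks). A longer list tends to give shorter distances, and the order was not corrected for this.

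**Figure D1:**
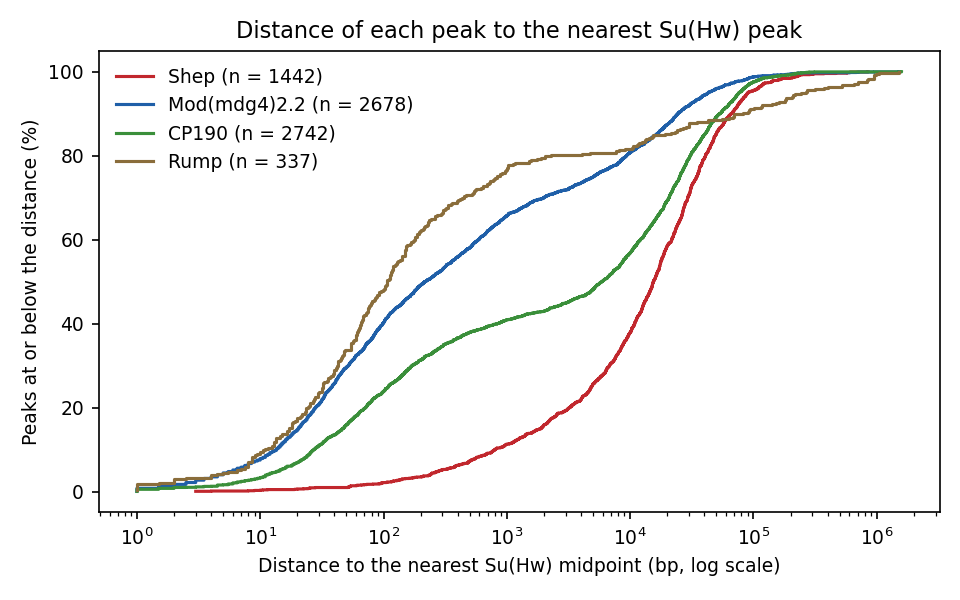
Share of peaks (vertical axis, %) at or below a given distance to the nearest Su(Hw) midpoint (horizontal axis, bp, log scale; distances under 1 bp drawn at 1 bp), for the Shep, Mod(mdg4)2.2, CP190 and Rump lists. The Shep curve passes 25% at 4849 bp, whereas the other 3 curves pass it at 38.5 bp (Mod(mdg4)2.2), 109.5 bp (CP190) and 32.5 bp (Rump).

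The gaps between unshared peaks were counted next. No share of positions was computed for these gaps, so the counts show neither a lack nor an excess of near misses. Of the 1259 unshared Shep peaks, 29 (2.30%, 1.61 to 3.29) had a gap of at most 500 bp to the nearest Su(Hw) edge, 64 (5.08%, 4.0 to 6.44) a gap of at most 1 kb and 408 (32.4%, 29.9 to 35.0) a gap of at most 10 kb. At the far end, 64 were more than 100 kb away. Of the 2195 unshared Su(Hw) peaks, 21 (0.957%, 0.627 to 1.46) had a Shep peak within 500 bp and 385 (17.5%, 16 to 19.2) within 10 kb. For 401 (18.3%, 16.7 to 19.9) the nearest Shep peak was more than 100 kb away, and 15 others lay on sequences without any Shep peak. On either side of the 1-bp limit, outside 2R, shared Shep peaks were ranked by their largest overlap with any Su(Hw) peak. The smallest were 2 bp at chrX:2187144-2187627, 7 bp at chr3R:25113025-25113508 and 8 bp at chrX:5611498-5611981. The smallest gaps were 28 bp at chr3R:25081149-25081632, 48 bp at chr3R:8268379-8268862 and 67 bp at chr2L:495527-496010. Of the 184 shared Shep peaks, 138 (75%, 68.3 to 80.7) lay wholly inside a Su(Hw) peak and 161 (87.5%, 81.9 to 91.5) had their midpoint inside it. Most Su(Hw) peaks are far wider than a Shep peak, which favours such positions, and no share of positions was computed for them.

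The density of Shep midpoints around Su(Hw) midpoints showed a low and broad rise. It was counted around the 2324 Su(Hw) peaks on the arms, as midpoints per kb per 1000 Su(Hw) peaks. Within 250 bp of the Su(Hw) midpoint the density of Shep was 55.1 (64 midpoints), against 13.9 at 25 to 50 kb (1617 midpoints), a ratio of 3.96. The ratio to the 25 to 50 kb level was 2.54 at 250 to 500 bp, 1.86 at 500 to 750 bp, 1.79 at 750 to 1000 bp and 1.21 at 1 to 1.5 kb, and it lay between 0.884 and 0.967 from 1.5 to 25 kb. In the same 250 bp the ratio was 42.5 for Mod(mdg4)2.2, 30.3 for CP190 and 67.2 for Rump, and at 500 to 750 bp it was 4.03, 1.58 and 3.47 for these proteins in the same order. Shep thus differed from the other lists mainly close to the Su(Hw) midpoint, and at 500 to 750 bp its ratio was within the range of theirs.

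**Figure D2:**
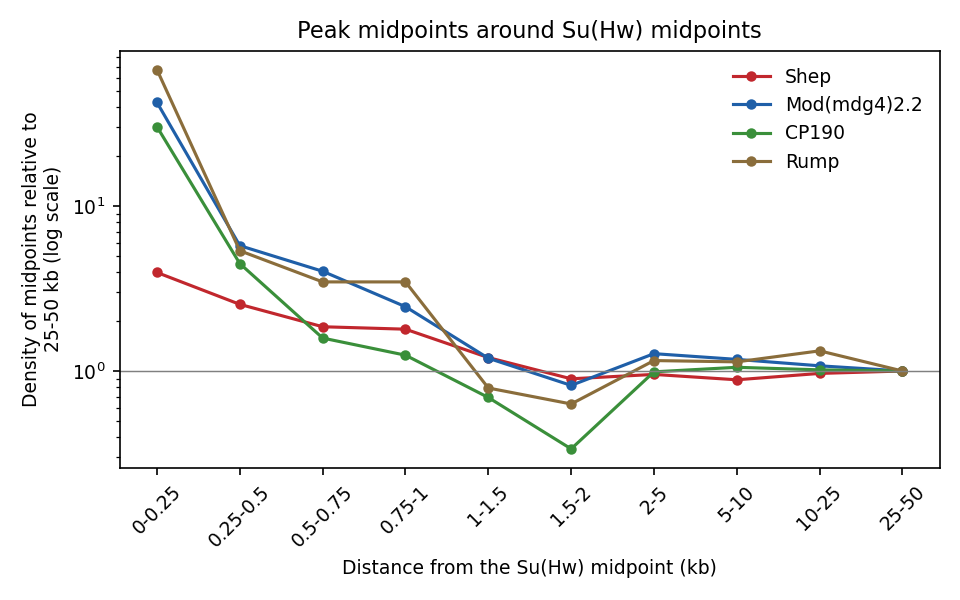
Density of peak midpoints in rings around Su(Hw) midpoints on the arms (horizontal axis, distance in kb), relative to the density at 25 to 50 kb (vertical axis, log scale, grey line at 1), for 4 lists. Within 250 bp Shep reaches 3.96, against 30.3 to 67.2 for the other lists, and all lists are near 1 beyond 2 kb.

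Inside the Su(Hw) peak, Shep midpoints were spread widely, where those of the other proteins were centred. The median distance of the Shep midpoint from the Su(Hw) midpoint was 419.5 bp (333.5 to 512, 184 peaks). For peaks that met Su(Hw), it was 69.5 bp for Mod(mdg4)2.2 (61 to 76.5, 1829 peaks), 80.5 bp for CP190 (73 to 89, 1183 peaks) and 65 bp for Rump (54.5 to 77.5, 267 peaks). Of the shared Shep peaks, 31 (16.8%, 12.1 to 22.9) had their midpoint within 100 bp of that of Su(Hw), against 58.9% (56.7 to 61.2) of Mod(mdg4)2.2 peaks. With the Su(Hw) peak divided into 10 equal bins, the central 2 bins held 47 Shep midpoints (25.5%, 19.8 to 32.3), against 74.5% of Mod(mdg4)2.2, 75.2% of CP190 and 82.8% of Rump midpoints. The Shep counts from the first to the last bin were 8, 15, 14, 16, 22, 25, 24, 18, 12 and 7, with 23 midpoints outside. These counts rise towards the middle on both sides. The Shep intervals did not overlap those of any other list in these measures. Shep peaks are fixed in width, as are those of Mod(mdg4)2.2 and Rump, so the midpoint is the authors' peak position. How precisely it marks the Shep site was not tested.

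**Figure D3:**
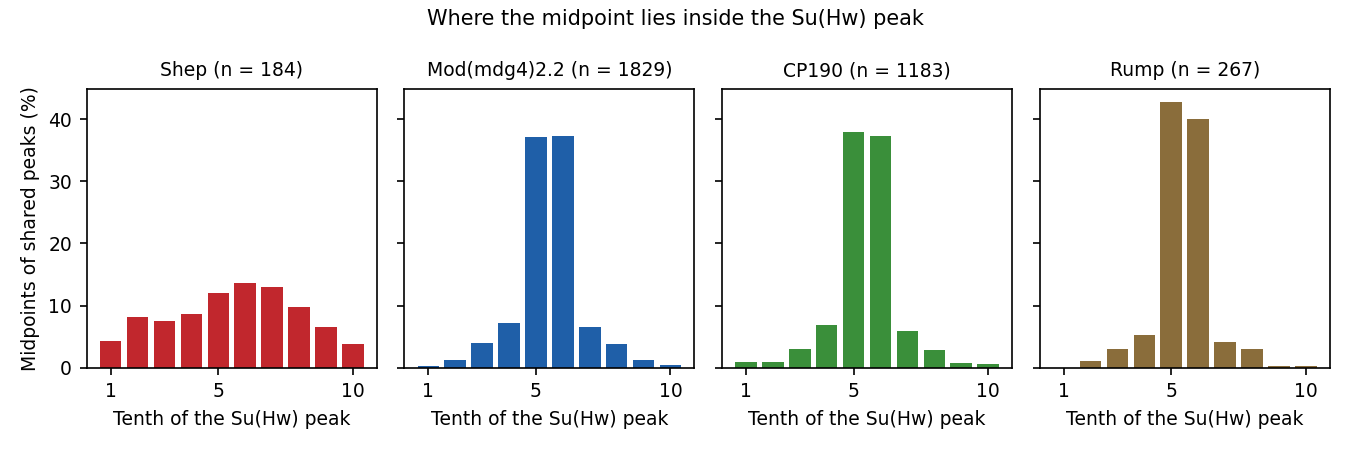
Position of the midpoints of shared Shep, Mod(mdg4)2.2, CP190 and Rump peaks within the Su(Hw) peak, in 10 equal bins from its lower to its higher coordinate (horizontal axis), as a share of shared peaks (vertical axis, %; midpoints outside the Su(Hw) peak are not drawn). Shep has 25.5% in the central 2 bins, and the other lists have 74.5% to 82.8%.

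The offset was also measured by the place of Mod(mdg4)2.2, although these classes are themselves set by position. Since Mod(mdg4)2.2 mostly lies near the centre of the Su(Hw) peak, a Shep peak that meets it tends to lie near the centre. A Shep peak that misses it tends to lie off the centre. Shep peaks that also overlapped Mod(mdg4)2.2 had a median offset of 270 bp (202 to 385, 92 peaks), and those with both Mod(mdg4)2.2 and CP190 one of 263.5 bp (161 to 385, 59 peaks). Where the Su(Hw) peak held Mod(mdg4)2.2 but the Shep peak did not meet it, the median was 898.5 bp (732.5 to 1083, 36 peaks), and 0 of these 36 were within 100 bp (Wilson upper bound 9.64%). Where the Su(Hw) peak had no Mod(mdg4)2.2, which sets no such constraint, the median was 376 bp (260.5 to 505.5, 57 peaks), with an interval that overlapped that of the Shep peaks with Mod(mdg4)2.2. The lower bound of 202 bp for the 92 Shep peaks with Mod(mdg4)2.2 was above 76.5 bp, the upper bound for Mod(mdg4)2.2. The latter is over all 1829 Mod(mdg4)2.2 peaks that met Su(Hw), and the Mod(mdg4)2.2 offset at the sites of the 92 was not computed. The offset changed little with the strength of the Shep peak, with medians of 407 bp (321 to 539, 134 peaks) at q up to 0.05 and 466 bp (260.5 to 623.5, 50 peaks) above it.

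Some Su(Hw) peaks met 2 Shep peaks. The widest of these, outside 2R, was chr3R:17027912-17030676 (2765 bp), which also met Mod(mdg4)2.2, CP190 and Rump. Its Shep midpoints were 1315 bp apart, and the one nearer the Su(Hw) midpoint had the lower score (83.9 against 185.6). At chrX:17629796-17632332, again with all 3 other proteins, the Shep midpoints lay 732.5 and 1402 bp from the Su(Hw) midpoint. The other 3 were chr3L:632385-634853 and chr3L:3901459-3903706, with none of the other proteins, and chr3L:1007505-1009965, with Mod(mdg4)2.2. At chr3L:1007505-1009965 the 2 Shep midpoints were only 199 bp apart and the peaks overlapped, so they may not be separate sites. In chr3R:17027912-17030676, chrX:17629796-17632332 and chr3L:632385-634853, the Shep midpoint farther from the Su(Hw) midpoint lay outside the Su(Hw) peak.

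Shared Shep peaks carried the other insulator proteins more often than unshared ones. Mod(mdg4)2.2 was at 92 of the 184 shared Shep peaks (50%, 42.9 to 57.1) and at 200 of the 1259 unshared ones (15.9%, 14 to 18.0). CP190 was at 48.9% (41.8 to 56.1) of the shared and 22.6% (20.4 to 25.0) of the unshared peaks. Both were present at 59 shared peaks (32.1%, 25.8 to 39.1) and 62 unshared peaks (4.92%, 3.86 to 6.26). Rump was at 16 shared (8.70%, 5.42 to 13.7) and 6 unshared Shep peaks (0.477%, 0.219 to 1.04). Shep peaks with none of the 3 other proteins made up 32.6% (26.3 to 39.7) of the shared and 66.3% (63.7 to 68.9) of the unshared group. Counted the other way, Su(Hw) was at 59 of the 121 Shep peaks with Mod(mdg4)2.2 and CP190 (48.8%, 40.0 to 57.6), at 19.3% (14.1 to 25.9) of the 171 with Mod(mdg4)2.2 only, at 12.2% (8.73 to 16.8) of the 254 with CP190 only and at 6.80% (5.33 to 8.64) of the 897 with neither. The lower bound of the last share, 5.33%, lay just above the 5.26% of positions on the arms that meet Su(Hw).

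These shares were nevertheless lower than at the same kinds of site without Shep. Of the Mod(mdg4)2.2 peaks, 90 of 289 with Shep met Su(Hw) (31.1%, 26.1 to 36.7), against 1739 of 2389 without Shep (72.8%, 71.0 to 74.5). The shares were further apart than their intervals both with CP190 at the Mod(mdg4)2.2 peak (49.6%, 40.8 to 58.4 with Shep, and 77.0%, 74.8 to 79.0 without Shep) and without CP190 (18.2%, 13.1 to 24.7 with Shep, and 65.9%, 62.7 to 68.9 without Shep). At CP190 peaks without Mod(mdg4)2.2, the intervals overlapped, with Su(Hw) at 17 of 202 peaks with Shep (8.42%, 5.32 to 13.1) and 104 of 1109 peaks without Shep (9.38%, 7.80 to 11.2). The contrast was thus seen at sites of Mod(mdg4)2.2 and was not detectable at sites of CP190 alone, though the difference between these contrasts was not tested.

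From the side of Su(Hw), peaks with and without Shep had overlapping intervals for each of the other proteins. Mod(mdg4)2.2 was at 120 of the 174 Su(Hw) peaks with Shep (69.0%, 61.7 to 75.4) and at 1477 of the 2195 without Shep (67.3%, 65.3 to 69.2). CP190 was at 56.3% (48.9 to 63.5) and 48.7% (46.6 to 50.8) of these groups, and Rump was at 16.7% (11.9 to 22.9) and 10.7% (9.44 to 12.0). In Su(Hw) peaks that held Mod(mdg4)2.2, the highest Mod(mdg4)2.2 score had a median of 149 (112 to 199, 120 peaks) with Shep and 154 (147 to 161, 1477 peaks) without Shep. Shep was at 7.79% (6.32 to 9.57) of the 1052 Su(Hw) peaks with Mod(mdg4)2.2 and CP190, 6.97% (5.12 to 9.43) of the 545 with Mod(mdg4)2.2 only, 14% (8.83 to 21.6) of the 114 with CP190 only and 5.78% (4.24 to 7.83) of the 658 with neither. Of these classes, the 114 with CP190 only and the 658 with neither had intervals that did not overlap.

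Sharing differed between width classes of the Su(Hw) peak and was highest in the narrowest. Shep was at 32 of the 152 Su(Hw) peaks under 1500 bp (21.1%, 15.3 to 28.2), at 7.35% (5.28 to 10.1) of the 449 from 1500 to under 2000 bp, at 5.37% (4.30 to 6.69) of the 1377 from 2000 to under 2500 bp and at 8.95% (6.51 to 12.2) of the 391 of 2500 bp or more. A window of the median width of each class meets Shep at 1.87%, 2.74%, 2.95% and 3.87% of positions on the arms. The class under 1500 bp thus had the highest share with Shep and the lowest share of positions, while from the class of 2000 to under 2500 bp to the widest class both were higher. They were also poor in the other proteins, with Mod(mdg4)2.2 at 26.3% (20.0 to 33.8), CP190 at 27.0% (20.6 to 34.5) and Rump at 1.32% (0.362 to 4.67), against 76.3%, 52.4% and 13.4% in the class from 2000 to under 2500 bp. Among Su(Hw) peaks with none of these 3, 13 of 92 met Shep under 1500 bp and 8 of 277 from 2000 to under 2500 bp. CP190 peaks, set beside them because they have a similar range of widths, gave no such excess: Shep was at 10.8% (8.10 to 14.4) of the 378 CP190 peaks under 1500 bp and at 12.9% (11.6 to 14.3) of the 2364 wider ones. These width classes were chosen after the widths had been seen, and how the strength of the Su(Hw) peaks bears on the difference was not tested, as that list has no score.

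**Figure D4:**
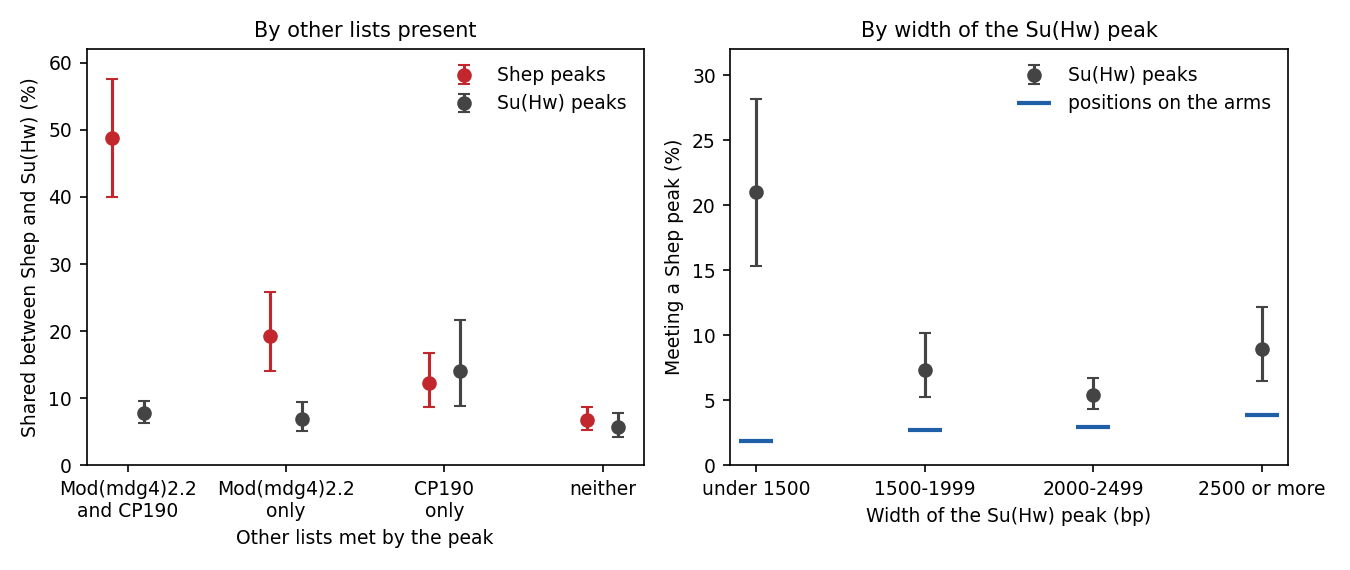
Left, share of Shep and of Su(Hw) peaks that are shared (vertical axis, %) by the other proteins the peak meets; right, share of Su(Hw) peaks that meet Shep by width class (bp), with the share of window positions on the arms that meet Shep (blue marks). Points are shares and bars Wilson 95% intervals; Shep sharing runs up to 48.8% with both Mod(mdg4)2.2 and CP190 while Su(Hw) sharing stays at 5.78% to 14%, and Su(Hw) peaks under 1500 bp reach 21.1%.

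Sharing varied little with the score of the Shep peak. From the lowest to the highest of 4 equal classes of Shep score, 11.6%, 11.1%, 15.3% and 13.0% of peaks met Su(Hw), with intervals that all overlapped. The median score was 111 (105 to 118) for shared and 107 (105 to 110) for unshared Shep peaks. By q, the share was 13.9% (11.4 to 16.9) up to 0.01, 12.9% (9.87 to 16.7) from there to 0.05 and 11% (8.45 to 14.2) above 0.05.

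On a larger scale, many 100-kb windows held both lists without a shared peak. Of 1187 fixed windows over the arms, 700 (59.0%) held a Shep midpoint, 958 (80.7%) a Su(Hw) midpoint, 600 (50.5%) both and 129 (10.9%) neither. Only 156 of the 600 windows with both held a shared Shep peak (26.0%, 22.7 to 29.6). Shep was present in 62.6% (59.5 to 65.6) of windows with Su(Hw) and 43.7% (37.4 to 50.1) of windows without Su(Hw). The first share was close to the 59.0% (56.2 to 61.7) of all windows, but windows with Su(Hw) make up 80.7% of these, which holds it near. The interval of the second share overlapped neither. How far the number of windows with both follows from how many windows each list fills was not tested. That number is therefore not read as an association. The mean number of Shep peaks per window was 0.878 ± 1.31 (SD, 229 windows) with no Su(Hw) peak, 1.1 ± 1.30 (323) with 1, 1.35 ± 1.36 (260) with 2, 1.19 ± 1.46 (177) with 3, 1.30 ± 1.60 (107) with 4 and 1.90 ± 2.10 (91) with 5 or more. The means were highest at 5 or more Su(Hw) peaks and did not increase at every step. The share of windows with Shep was 73.6% (63.7 to 81.6) at 5 or more Su(Hw) peaks, above that of windows without Su(Hw) with no overlap of the intervals. Across all windows the Spearman rho of the counts was 0.149, a description only, since the lists share an input and neighbouring windows are not independent. By arm, rho was 0.0519 on 3R, 0.1 on X, 0.168 on 2L, 0.182 on 3L and 0.242 on 2R. Some windows without Su(Hw) lay in runs at arm ends, as at the start of 2R and the end of 3L. What these runs contribute to rho was not tested. Leaving out the windows without any peak of either list gave -0.0319, a value that this choice lowers by construction, since it removes only windows where both counts are 0.

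The windows with the most peaks of each list were then named. Outside 2R, the most Shep peaks, 12, were in the window chr3R:12000001-12100000, which held 6 Su(Hw) peaks and no shared site. The windows chr2L:400001-500000 and chr3L:3400001-3500000 held 10 Shep peaks each, with 3 and 8 Su(Hw) peaks, and 3 and 4 of their Shep peaks were shared. The second of these, on 3L, was 1 of several windows tied at 8 Su(Hw) peaks. The most Su(Hw) peaks outside 2R, 9, were in chr3L:4400001-4500000, which had no Shep peak, and chr3R:15700001-15800000 held 8 Su(Hw) peaks and 1 Shep peak. A further window on 3R and 1 on X also held 8 Su(Hw) peaks, with 1 and 0 Shep peaks. The windows richest in Su(Hw) were thus not in general rich in Shep. Around the peaks themselves, the window of a shared Shep peak held a mean of 2.03 ± 2.13 other Shep peaks (SD, 184 peaks) and that of an unshared one 1.97 ± 1.93 (1246 peaks). Leaving out the partners, it held 2.40 ± 1.69 Su(Hw) peaks for shared and 2.09 ± 1.70 for unshared Shep peaks. For Su(Hw), the window held 1.86 ± 1.96 Shep peaks besides the partners at shared peaks (174) and 1.27 ± 1.56 at unshared peaks (2150). The same windows held 2.41 ± 1.70 and 2.33 ± 1.75 other Su(Hw) peaks. Being shared can select windows rich in the other list, even with the partners left out. How far the sharing rule sets the contrasts between shared and unshared peaks in the other list was not tested.

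The chromosomes shared to a similar degree. The share of Shep peaks that met Su(Hw) was 12.6% on 2L, 13.3% on 2R, 12.7% on 3L, 13.8% on 3R and 11.2% on X, with intervals that overlapped throughout, and it was above the share of positions meeting Su(Hw) on each arm (4.74% to 5.97%). The Su(Hw) peaks with Shep were 10.2% (7.56 to 13.6) on 2R, 8.41% (6.49 to 10.8) on 3R and 6.13% to 6.39% on 2L, 3L and X, again with overlapping intervals. The lists themselves differed on 2R, which held 22.9% (20.8 to 25.1) of Shep peaks and 16.6% (15.1 to 18.1) of Su(Hw) peaks. Per Mb, Shep had 15.7 peaks on 2R, 14 on 3R, 11.2 on X, 9.77 on 3L and 9.67 on 2L. Su(Hw) had 18.6 on 2R, 22.6 on 3R, 21.1 on X, 17.4 on 3L and 17.7 on 2L. On X lay 28 of the 184 shared Shep peaks (15.2%, 10.7 to 21.1) and 223 of the unshared ones (17.7%, 15.7 to 19.9). Outside the 5 arms, 0 of 13 Shep peaks met Su(Hw) and 0 of 45 Su(Hw) peaks met Shep. Taking 3 counts as the most that a count of 0 allows, these limit the shares to 23.1% and 6.67%, and the Wilson upper bounds are 22.8% and 7.87%. Chromosome 4 held 8 peaks of each list, none shared, and 2.01% of its positions meet Su(Hw). The unplaced sequence U held 13 Su(Hw) peaks and the sequence M held 2, with no Shep peak on either. These Su(Hw) peaks could not be shared but count among the 45. With so few peaks, the counts of 0 are not read as a difference from the arms.

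**Figure D5:**
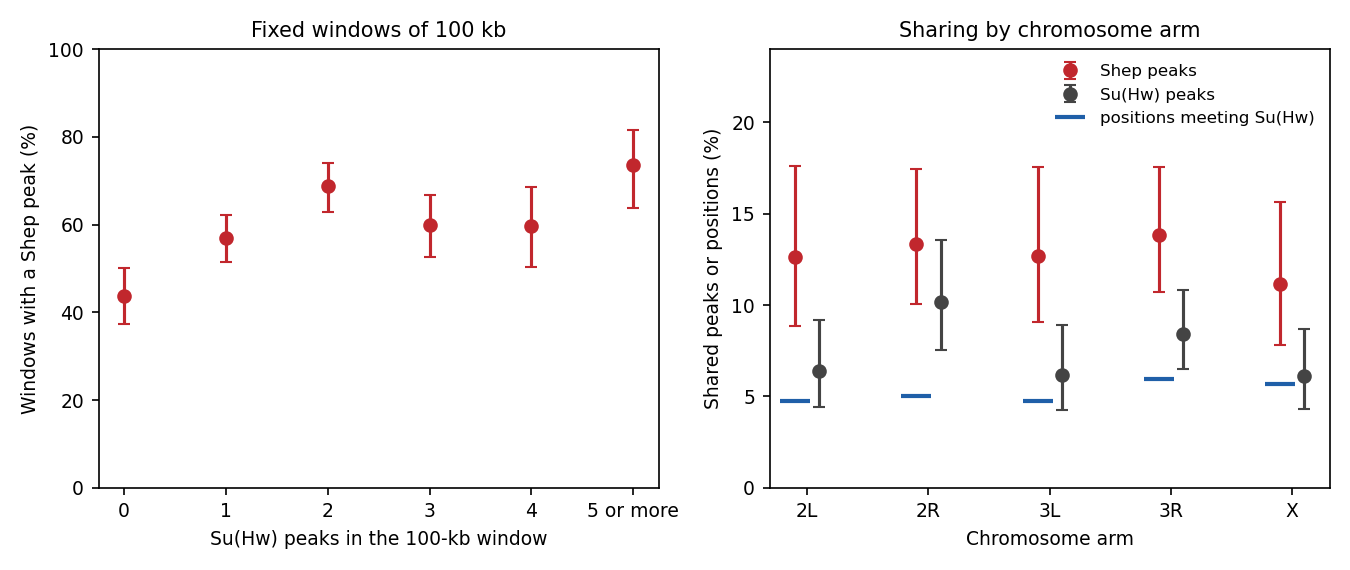
Left, share of 100-kb windows with a Shep peak (vertical axis, %) by the number of Su(Hw) peaks in the window; right, share of Shep and of Su(Hw) peaks that are shared on each arm, with the share of positions on the arm where a window of Shep width meets Su(Hw) (blue marks). Points are shares and bars Wilson 95% intervals; windows with Shep go from 43.7% without Su(Hw) to 73.6% with 5 or more Su(Hw) peaks, and the arms lie between 11.2% and 13.8% for Shep.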

How the data were processed

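ChIP-seq peak lists of 5 proteins in Kc167 cells were used as the authors deposited them, 1 list per protein. Per the submitters' processing notes, the tools included Bowtie 0.12.8, Picard 1.77, Trimmomatic 0.20, bedtools 2.17.0 and cutadapt 1.1, with build dm3. Not given in the sources used here are the peak caller, its threshold and how the 2 Shep libraries were combined. The deposited lists give peak starts and ends as positions, which belong to other units than expression values. The Shep and Mod(mdg4)2.2 lists also hold the authors' peak score, and the Shep list a deposited −log10 q-value by the narrowPeak layout. Starts, deposited counting from 0, are printed counting from 1.

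Overlap, gap, midpoint distance and position were computed per peak and tested on simulated data with planted pairs. Each arm was taken to end where the last peak of any list ends. Shares of positions were counted over every start of a window on the arms. No significance test was made. Regions were named by rank of score, overlap, gap or window count, leaving out 2R, whose peaks enter every count. Members and measures were chosen with earlier results of these data known. The work used SciPy 1.17.1, NumPy 2.4.6 and pandas 2.3.3 under Python 3.11.15, and figures were drawn with matplotlib 3.10.9.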

Additional observations from a re-analysis of the deposited data

How the results depend on the processing

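Of 57 values recomputed under other settings, 42 stayed within the 95% interval of the value reported (for the window correlation, within 1.5 times) and 15 did not. With all peaks resized to 300 bp, 5.20% of Shep and 3.08% of Su(Hw) peaks were shared, against 1.17% of positions for such windows; the median offset was then 128.5 bp, which that width bounds at 300 bp, Mod(mdg4)2.2 was at 62.7% of shared Shep peaks and X held 9.33% of them. With the widest 50% of Su(Hw) peaks, 6.93% of Shep peaks were shared, with an offset of 649 bp and Mod(mdg4)2.2 at 58.0%. Fewer Shep peaks gave fewer Su(Hw) peaks with Shep (4.31% with the upper 50% by score, 5.53% at q up to 0.05, 3.63% at q up to 0.01). With gaps up to 500 bp, 14.8% of Shep peaks were shared. Without Su(Hw) peaks under 1500 bp, a setting added after the data had been seen, it was 10.7%. The window correlation was 0.0752 with windows of 50 kb and -0.0319 over windows with a peak of either list, a choice that lowers it by construction. Shep peaks merged where they overlapped, also added later, gave 12.7%. No paired analysis was possible because each list is deposited once. The unknown depth limits what a missing overlap shows: a site under the authors' threshold is not in a list.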

Other observations

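The Su(Hw) list holds 51 peaks of exactly 300 bp, apart from the rest of its width range. Of these, 9 met Shep (17.6%, 9.57 to 30.2, Wilson 95% interval), 13 met Mod(mdg4)2.2 (25.5%, 15.6 to 38.9) and 10 met CP190 (19.6%, 11 to 32.5). The Su(Hw) peaks over 300 and under 1500 bp met Shep at a like share, 23 of 101 (22.8%, 15.7 to 31.9). The peaks under 1500 bp were not gathered outside the arms, where 2 of 152 lay (1.32%, 0.362 to 4.67), against 45 of all 2369 Su(Hw) peaks (1.90%, 1.42 to 2.53), and 29 of the 152 were on X (19.1%, 13.6 to 26.1). In the 32 shared peaks of this class the Shep midpoint lay a median of 305.5 bp (202 to 431.5) from that of Su(Hw), against 485.5 bp (347.5 to 594, 152 peaks) in the wider Su(Hw) peaks.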
